A study of Mus musculus with 2 samples.

Results

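In C2C12 cells, 574 spliced structures from 427 genes were classed as the start of an annotated transcript without its last exons and had at least 3 reads in each of 2 long-read libraries. They belong to the Prefix subtype of incomplete splice matches in the deposited annotation. By the definition of that class, every splice junction is annotated and consecutive, but junctions towards the 3′ end of the transcript are missing. Models with at least 2 exons were paired across libraries where chromosome, strand and the whole chain of introns were identical. The members were thus chosen by their class and their read counts, and those values are given as a description. The members are 574 of 6937 Prefix structures read in either library (8.27%) and of 104190 structures with several exons in annotated genes. For 21 members the name goes against the data. These read through the next intron and stopped within 100 nt of the annotated transcript's own end in both libraries, so they retained an intron and did not lack the 3′ region. For 11 further members, no transcript of GENCODE M21 was found that starts with their chain of introns and goes on.

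The study sequenced total RNA of C2C12, a mouse myoblast line that the labels trace to injured thigh muscle of C3H animals, as 1 group of 2 biological replicates. There is no treatment and no second genotype, and the labels do not give the state of differentiation or the sequencing platform. The libraries held 791850 reads in replicate 1 and 735077 reads in replicate 2. All 10 myoblast marker genes listed were read in both libraries, at a sum of 3262 CPM (counts scaled to a common total of reads on annotated genes) in replicate 1 and 3580 CPM in replicate 2. Of these, 3 differed between the libraries by an exact binomial test with adjustment over all genes: Des with 1139 CPM in replicate 1 and 1643 CPM in replicate 2, Myf5 with 278 and 83.0 CPM, and Sdc4 with 487 and 328 CPM (adjusted p 5.84e-14, 1.05e-16 and 0.000126). The test called 3.98% of all genes tested. Markers of blood cells summed to 3.88 and 8.30 CPM, of endothelium to 0 and 1.38 CPM, of epithelium to 41.4 and 33.2 CPM, and of neural cells to 62.1 and 65.0 CPM. Krt14 alone gave nearly all of the epithelial sum (31 and 24 reads) and Tubb3 nearly all of the neural sum (48 and 46 reads). The other epithelial and neural markers listed had at most 1 read in each library.

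A transcript can end before its last exon when the cleavage and polyadenylation machinery acts on a signal inside an intron or an internal exon. Such early ends can encode shortened proteins, and the U1 small nuclear ribonucleoprotein is known for holding them back in many genes. A long read can also stop early because cDNA synthesis was primed on an A-rich stretch inside the RNA, or because the RNA was broken. Reads alone do not separate these events, so the early ends below are candidates only. The priming of these libraries is not given in the labels.

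The exons in which the most-read members ended held A-rich stretches, which are printed here for 6 of these members because they show the A-rich stretches of these exons. The 6 were picked after their values were seen and hold 16 or 17 A in 20 nt. Among well-read members not printed, not all of which are given, the richest window held 13 A in Hspd1, 15 A in Hsp90aa1 and in Cald1, and 16 A in Ptpn11. Each line gives 30 nt of the annotated transcript, 5′ to 3′, with the 20-nt window richest in A in capitals. All are coding sequence from GENCODE M21 on mm10.
Hsp90ab1: aagacAAGAAAAAGAAAACAAAGAAgatca
Sec62: gtgttAAAGAAGAAAAAACAAAAAAggaaa
Son: agcacAAAAACAAAAAGAAGAAAAAgaaga
Sf3b1: tccagAAGAACAAAAAGAAAGAAAAataat
Eif2s2: ttggcAACAAAAAAAAGAAAAAGAAgaatg
Mtdh: aatctAAAAAGAAAAAGAAGAAAAAgaaga
The Hsp90ab1 stretch lies in exon 6 at chr17:45570398-45570427 on the minus strand and holds 16 A in 20 nt. Those of Sec62 (exon 4, chr3:30809956-30809985, plus strand), Son (exon 3, chr16:91654704-91654733, plus strand), Eif2s2 (exon 4, chr2:154884353-154884382, minus strand) and Mtdh (exon 9, chr15:34134340-34134369, plus strand) hold 17 A each. That of Sf3b1 (exon 11, chr1:55003150-55003179, minus strand) holds 16 A. In Mtdh the recorded end of both libraries directly preceded the window. In Hsp90ab1 22 nt lay between the recorded end and the window in both libraries, and in Son 14 nt in replicate 1 and 12 nt in replicate 2. In Sec62, Sf3b1 and Eif2s2 the whole window lay upstream of the recorded end in both libraries.

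Prefix models as a class took a small part of each library. They held 12295 reads in replicate 1, or 1.55% of all reads (Wilson 95% interval 1.53 to 1.58%), and 12209 reads in replicate 2, or 1.66% (1.63 to 1.69%). These intervals, like all others here, cover counting error only. Suffix models, which lack 5′ junctions instead, took 6.74% of reads in replicate 1 and 5.53% in replicate 2. The 574 members held 6910 reads in replicate 1 and 6826 in replicate 2, which was 56.2% and 55.9% of the Prefix reads. Their share of kept structures, 8.27%, stood beside 6.22% of 28120 Suffix structures, 4.43% of 18622 structures with new combinations of annotated splice sites (NIC), 1.83% of 32719 structures with an unannotated splice site (NNC) and 46.9% of 17484 annotated structures at the same minimum of reads.

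Most members were thinly read. The median member had 7 reads in replicate 1 and 7 in replicate 2. The lower of the 2 counts was exactly 3 in 160 members, at least 10 in 153, at least 20 in 44 and at least 100 in 4. Just outside the threshold, 310 Prefix structures had a lower count of 2, and their median share of the gene was 5.88% in replicate 1 and 5.80% in replicate 2. Just inside it, at a lower count of 3, the median share was 8.52% and 9.18%. Member genes had more reads than others, with a median of 48 reads per gene in replicate 1 and 46 in replicate 2, against 13 and 12 for all annotated genes with reads. Of 11719 genes read in both libraries, 427 held a member (3.64%). That share was 0.497% among genes whose lower count was under 10. It was 5.36%, 6.47% and 8.55% among genes with 10 to 49, with 50 to under 200 and with at least 200 reads. The rule asks for at least 3 reads of the structure in each library, so genes with fewer reads cannot hold a member. The rule thus favours deeply read genes, and nothing is read from this rise or from the medians.

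**Figure D1:**
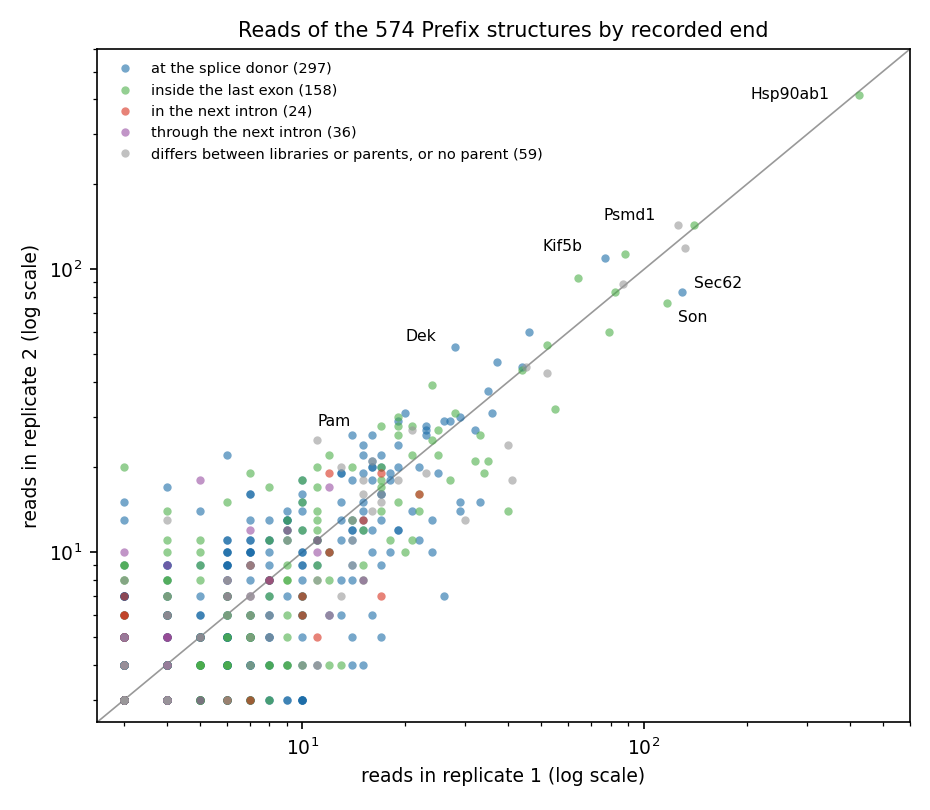
Reads of each of the 574 members in replicate 1 (x axis) and replicate 2 (y axis), both on log scales, with 1 point per structure coloured by where its end was recorded relative to the annotated parent; the line marks equal counts. Most points sit below 20 reads in both libraries, and Hsp90ab1, with 426 and 414 reads, stands far above the rest.

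The share of a gene's reads taken by a member had a median of 14.9% in replicate 1 and 14.6% in replicate 2. A share of at least 10% in both libraries was reached by 320 members, of at least 25% by 144 and of at least 50% by 35. At the low end, 21 members stayed under 1% of their gene in both. Shares are imprecise in thinly read genes, so the 464 members whose gene had at least 20 reads in each library were also counted apart. Of these, 211 reached 10% and 67 reached 25% in both libraries.

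Chaperones led the list by reads. Hsp90ab1 (ENSMUSG00000023944.14; mm10 chromosome 17, 45567775 to 45573271), a cytosolic HSP90 chaperone, had a structure ending in exon 6 of 11 with 426 reads in replicate 1 and 414 in replicate 2, of 1850 and 1677 reads on the gene. That was 23.0% in replicate 1 and 24.7% in replicate 2, with overlapping intervals. Its relative Hsp90aa1, the other cytosolic form, had 88 of 264 reads and 113 of 258 reads on a structure ending in exon 5 of 11, or 33.3% and 43.8%. Hsp90b1, the form of the endoplasmic reticulum, had 87 of 409 and 89 of 419 reads ending in or past exon 7 of 18, or 21.3% and 21.2%. In all 3 the early structure took at least 21.2% of the gene in each library. Hspd1, the mitochondrial chaperonin, had 46 of 448 and 60 of 534 reads on a structure ending in exon 9 of 12, or 10.3% and 11.2%.

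Translation and protein turnover came next. Psmd1 (chromosome 1, 86064387 to 86139151), a scaffold subunit of the proteasome's regulatory particle, had 126 of 245 reads in replicate 1 and 144 of 268 in replicate 2 ending in exon 22 of 25. Its share was 51.4% (45.2 to 57.6%) in replicate 1 and 53.7% (47.8 to 59.6%) in replicate 2. The structure thus had about as many reads as all other models of the gene together. Its recorded ends lay 51 nt apart in the 2 libraries, and whether these reads mark an early end of the RNA was not tested. Eif2s2, a subunit of the initiation factor that brings the initiator tRNA to the ribosome, had 79 of 472 and 60 of 393 reads ending in exon 4 of 9, or 16.7% and 15.3%. Sec62, a membrane protein of the translocation channel of the endoplasmic reticulum, had 129 of 186 and 83 of 111 reads ending in exon 4 of 8, or 69.4% and 74.8%.

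Splicing and cytoskeletal genes completed the most-read members. Son (chromosome 16, 91647506 to 91679221), a large nuclear speckle protein needed for splicing, had 117 of 130 reads in replicate 1 and 76 of 91 in replicate 2 on a structure ending inside exon 3 of 12. Its share, 90.0% (83.6 to 94.1%) and 83.5% (74.6 to 89.7%), was the highest by its lower value among genes with at least 20 reads in each library. Exon 3 of Son spans 5970 nt, and the ends were recorded 5886 and 5884 nt before its splice donor. Sf3b1, the core of the splicing factor that binds the branch point, had 64 of 122 and 93 of 170 reads ending in exon 11 of 25, or 52.5% and 54.7%. Kif5b, a heavy chain of the kinesin that carries cargo along microtubules, had 77 of 154 and 110 of 205 reads ending at exon 11 of 26, with intervals of 42.2 to 57.8% and 46.8 to 60.4%. Ptpn11, the tyrosine phosphatase SHP2, had 45 of 62 and 45 of 63 reads, or 72.6% and 71.4%. Mtdh, a membrane protein, had 52 of 273 and 54 of 226 reads, or 19.05% and 23.9%.

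Further genes had few reads but high shares. Among genes with at least 20 reads in each library, Cenpe, a kinesin of the kinetochore, had 36 of 47 reads in replicate 1 and 31 of 43 in replicate 2 ending at exon 16 of 46, or 76.6% and 72.1%. Hcfc2 had 16 of 23 and 21 of 27 reads, or 69.6% and 77.8%, and this structure lacked only the last of 15 exons. Mphosph8, a chromodomain protein of a silencing complex, stood at 65.3% and 72.4%. Srrm2, a scaffold of nuclear speckles, stood at 70.5% and 62.7%, and Naa25, a subunit of an amino-terminal acetyltransferase, at 56.7% and 58.3%. In all 5 of these genes the intervals of the 2 libraries overlap.

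**Figure D2:**
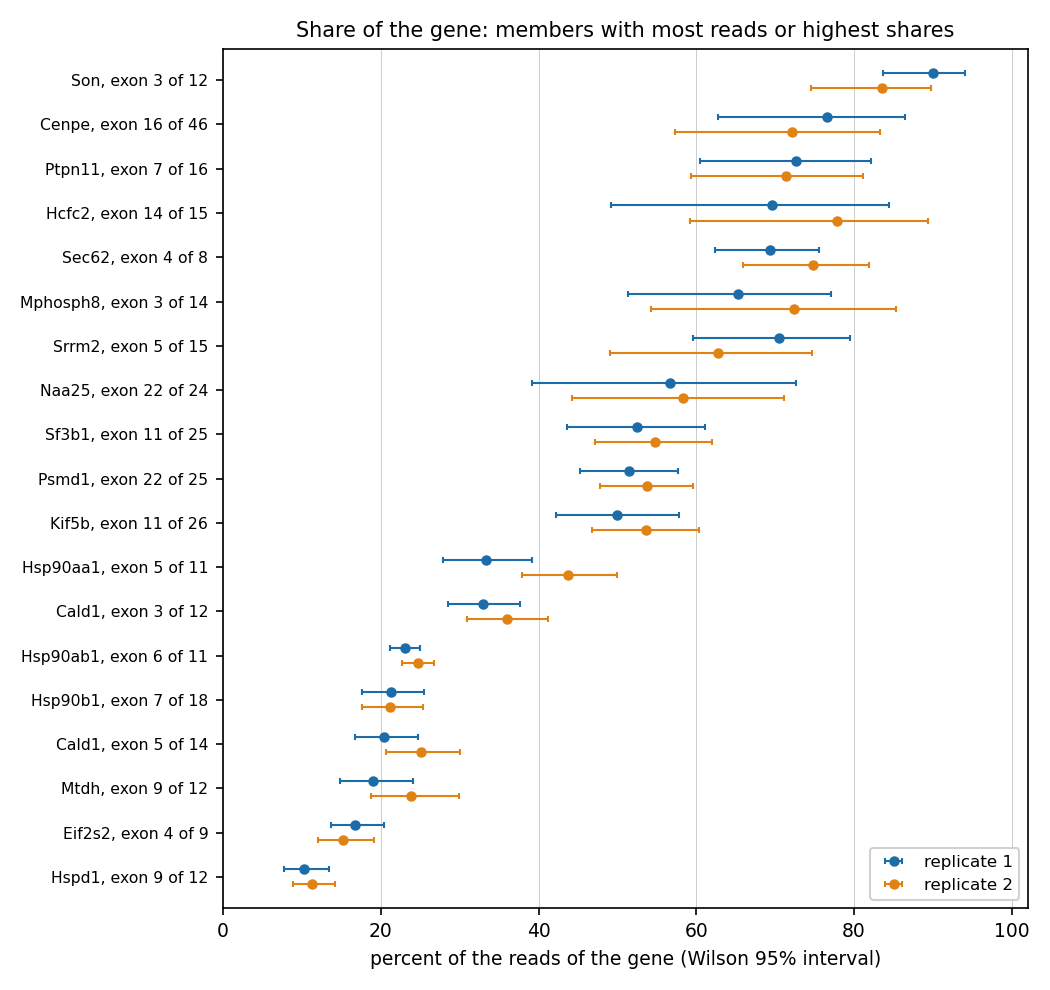
Percent of the reads of the gene taken by the members with the most reads or the highest shares, with replicate 1 drawn above replicate 2 and bars for Wilson 95% intervals. Shares run between 10.3% in Hspd1 and 90.0% in Son in replicate 1, and the 2 libraries lie close together for most members.

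Several structures often came from 1 gene. Of the 427 genes, 327 had 1 member and 100 had at least 2. Members of 1 gene share its RNA and are not independent. Cald1 (chromosome 6, 34598500 to 34775473), the actin- and tropomyosin-binding protein caldesmon, had 7, which together took 263 of 401 reads in replicate 1 and 246 of 331 in replicate 2, or 65.6% and 74.3%. The largest ended in exon 3 of 12 with 132 and 119 reads. The next had 82 and 83 reads and ended at the same base in both libraries, which was also the end recorded for the largest in replicate 2. They differ in their upstream exons and end in the same exon, which holds a window of 15 A in 20 nt. Rbm25, a splicing regulator, had 5 members with 48 of 97 and 48 of 76 reads. Ccdc34 had 3 members with 85 of 102 and 79 of 86 reads, or 83.3% and 91.9%. Eif5b, the factor that joins the ribosomal subunits, had 3 with 67 of 93 and 55 of 68 reads, or 72.0% and 80.9%. Members summed to at least 50% of the gene in both libraries in 63 genes, and to at least 25% in 164.

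Genes of the SMC family, ATPases with long coiled coils that organise chromosomes, held several members. This and the other families were picked after the values were seen, and no test was made between them. Of 6 SMC genes read in both libraries, 5 had members: Smc1a, Smc2, Smc3, Smc4 and Smc6. Their members held 217 of the family's 405 reads in replicate 1 and 273 of 453 in replicate 2. Smc6 had the most-read single structure, with 44 of 102 and 45 of 133 reads, or 43.1% and 33.8%. Smc2 and Smc4 had 5 members each, which summed to 63.9% and 67.5% of Smc2 reads and 54.0% and 70.5% of Smc4 reads. Over all genes read in both libraries 3.64% held a member, and 8.55% of those with at least 200 reads. Among cytosolic ribosomal protein genes 5 of 80 (6.25%) had one, and among collagen genes 1 of 18 (5.56%). The counts stood at 3 of 4 for HSP90 genes, 4 of 25 for kinesins (16.0%), 9 of 51 for translation initiation factors (17.6%), 5 of 36 for proteasome subunits (13.9%), 2 of 19 for hnRNP genes (10.5%), 1 of 10 for SR protein genes and 9 of 46 for DEAD and DEAH box helicases (19.6%). The families differ in depth, with a median lower count of 70 reads per SMC gene, 521 per ribosomal protein gene and 6 per kinesin gene.

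None of the 10 myoblast markers had one. Of 19 genes for troponins, tropomyosins and striated muscle actins and myosins read in both libraries, 3 did (15.8%), beside 3.64% of all genes read in both and 6.47% of those with 50 to under 200 reads. Tnni1, the slow skeletal troponin I, had 17 of 139 reads and 16 of 110 reads on a structure of 8 exons, or 12.2% and 14.5%, and no annotated transcript in GENCODE M21 starts with its intron chain. Tpm1 and Tpm4, which encode tropomyosins, had members at 1.40% of the gene or less in each library.

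The members were short and mostly ended inside the coding sequence. Of the 574, 572 lay in protein-coding genes, 1 in a lincRNA gene and 1 in a pseudogene. They had 2 to 34 exons, with a median of 7. An annotated transcript whose intron chain starts with that of the member, called the parent, was found for 563 of 574. Relative to the most-read parent, members lacked a median of 6 exons, at least 5 exons in 327 cases and a single exon in 91. The median spliced length was 1146 nt for members and 3667 nt for parents. The part of the parent up to the recorded end made up a median of 33.1% of its length. Where an end lay outside the parent's exons, that part was counted to the end of the last shared exon. Parents were also longer where the member took more of the gene, with medians of 4939 nt at shares of at least 50%, 4457 nt at 25 to 50% and 3285 nt below 25%. Annotated transcripts with several exons had a read-weighted median of 1724 nt. Of 543 members with a coding parent, 516 ended before the stop codon and 1 before the start codon, after a median of 49.95% of the coding sequence. The intron that follows the last shared exon had a median of 1250 nt, close to the 1226 nt of other introns of the parents.

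Recorded ends lay mostly on sites that are already annotated, which limits what they say about the true end of each read. Each model carries a single end per library, so the spread of ends among its reads is not measured. In replicate 1, 521 of 574 ends (90.8%) fell on the exact base of an annotated splice donor or transcript end, and in replicate 2 513 (89.4%). The same was true of 89.3% and 89.0% of Suffix structures kept at the same minimum, so it is not particular to the members. The donor was used in both libraries by 297 members and an annotated transcript end by 198. An own position was recorded for 43 members in both. Where annotated transcript ends were used, 58 of 206 in replicate 1 and 56 of 204 in replicate 2 belonged to transcripts tagged as incomplete at the 3′ end. Lack of this tag does not by itself show a complete 3′ end. The annotated ends recorded for the most-read structures of Hsp90ab1, Hsp90aa1, Sf3b1 and Eif2s2 lack it but belong to transcripts annotated as retained introns. For the most-read structures of Srrm2 and Dek, the end recorded in both libraries is that of a transcript with this tag.

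Relative to the parent, 297 members (51.7%) ended exactly at the splice donor of their last shared exon in both libraries and 158 (27.5%) inside that exon. A further 24 (4.18%) ended in the intron that follows, and 36 (6.27%) read through that intron into later sequence. The position differed between libraries in 36, differed between parents in 12, and 11 had no parent. By the simpler scheme planned at first, 344 ends (59.9%) were exonic, 204 (35.5%) lay within 100 nt of an annotated transcript end, 7 (1.22%) were intronic and 19 differed between libraries. Reads on members at the donor numbered 2933 in replicate 1 and 2926 in replicate 2, and reads on members inside the last exon 2588 and 2553. Median shares were 14.6% and 14.3% for ends at the donor, 17.3% and 17.05% for ends inside the exon, and 5.49% and 6.65% for read-through of the intron.

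**Figure D3:**
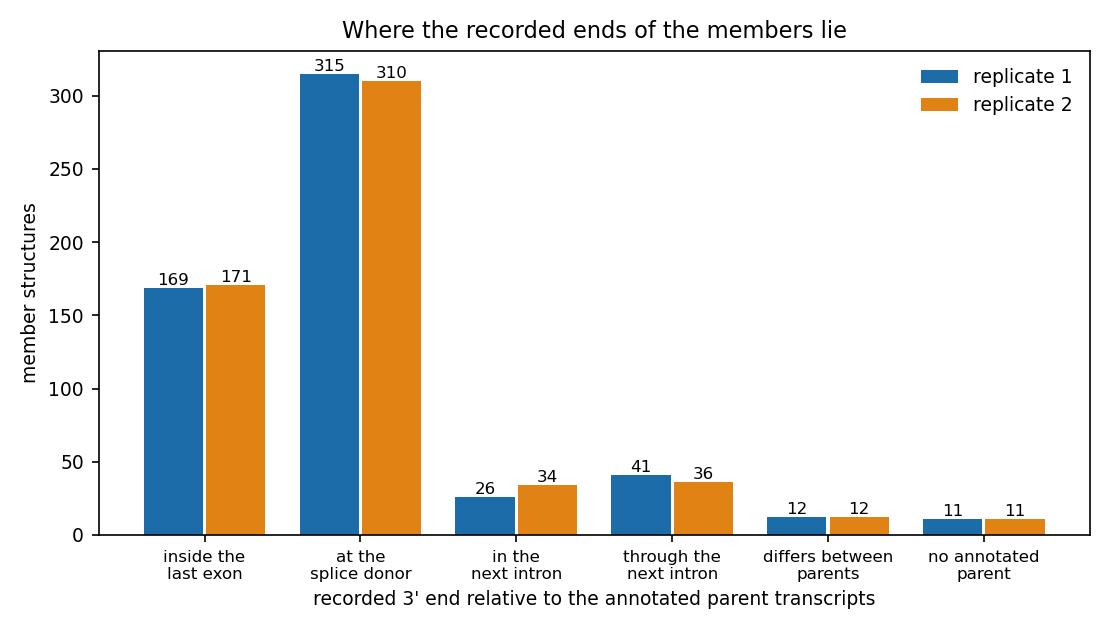
Number of members (y axis) by the position of the recorded 3′ end relative to the annotated parents (x axis), with replicate 1 left of replicate 2. Ends at the splice donor lead with 315 and 310 members, and ends in the next intron number 26 and 34.

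Ends were recorded at the same base in both libraries for 491 of 574 members (85.5%), within 20 nt for 519 and within 100 nt for 534. The same base was shared by 73.8% of Suffix, 69.6% of NIC and 73.0% of NNC structures kept at the same minimum, and by all annotated structures, which have their end from the annotation. Because most ends sit on annotated bases, this agreement is not an independent measure of precise ends. The 43 members with an own position in both libraries are a stricter group. Of these, 14 had the same base, 30 lay within 20 nt and 33 within 100 nt, with a median distance of 3 nt and a highest of 2393 nt.

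Among ends at an own position inside an exon, some were close between libraries. Rfc1, the large subunit of the clamp loader of DNA replication, had 24 of 51 and 25 of 45 reads with ends 309 and 310 nt before the donor. Rtf1, of the PAF1 elongation complex, had 18 of 44 and 11 of 24 reads ending at the same base, 83 nt before the donor. Scaf11, a splicing-related protein, had 33 of 69 and 26 of 54 reads, or 47.8% and 48.1%, again at 1 base. Over the 20 nt of the parent that follow the end, Rfc1 has 13 A in both libraries and Rtf1 15 A, whereas Scaf11 has 3.

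The 24 members that ended in the next intron in both libraries are the candidates nearest to intronic polyadenylation. They came from 23 genes and held 189 reads in replicate 1 and 176 in replicate 2. Their median share of the gene was 11.8% and 14.3%, against 14.97% and 14.7% for all other members. In 13 of them the share was at least 10% in both libraries. They ended 2 to 3704 nt past the splice donor. Larp7, Snx6, Smc4 and Atp6v1d ended at most 20 nt past it, at 5, 16, 2 and 4 nt, and 20 ended farther. An annotated transcript end was recorded in both libraries for 17 and an own position for 6. The annotated ends of Larp7, Wasl, Lars, Snx6 and Heatr6 belong to transcripts annotated as retained introns. Those of Tln1 and Smc4 belong to transcripts labelled processed transcript, and those of Brap, Caprin1 and Mvk to transcripts labelled protein-coding. The recorded end was the same base in both libraries for 18 of the 24 members and within 50 nt for 22.

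The best-read of these with ends over 20 nt into the intron was 2610005L07Rik, a transcribed unprocessed pseudogene on chromosome 8, with 22 of 47 and 16 of 33 reads, or 46.8% and 48.5%, 3704 nt past the donor. Among coding genes, Wasl (chromosome 6, 24613805 to 24665009), the N-WASP protein that activates actin branching, had 15 of 18 reads in replicate 1 and 13 of 19 in replicate 2. Its shares of 83.3% (60.8 to 94.2%) and 68.4% (46.0 to 84.6%) have wide intervals, and the end lay 31 nt past the donor. Lars, the cytosolic leucyl-tRNA synthetase, had 12 of 52 and 19 of 61 reads, 155 nt past the donor. Brap (chromosome 5, 121660563 to 121687256), a ubiquitin ligase of the Ras pathway, had 12 of 43 and 10 of 34 reads, or 27.9% and 29.4%, 353 nt past the donor. Heatr6 had 10 of 21 and 6 of 17 reads, 258 nt past it. Tln1, talin of focal adhesions, had 11 of 52 and 5 of 36 reads, 38 nt past it.

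The other candidates ending farther than 20 nt into the intron rested on few reads, between 3 and 10 in each library. Tpm1 had 2 structures, with 8 of 1716 and 8 of 1643 reads ending 98 nt past the donor and with 10 and 7 reads ending 1182 and 1211 nt past another donor. In a gene read this deeply both shares were at most 0.583%. Own positions in the intron were also recorded for Ttc21b, a protein of ciliary transport, with 4 of 7 and 5 of 11 reads at 425 and 426 nt. Homer3 had 3 of 34 and 3 of 31 reads at 676 nt in both libraries, and the motor Myo10 3 of 29 and 3 of 19 reads at 457 and 449 nt.

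**Figure D4:**
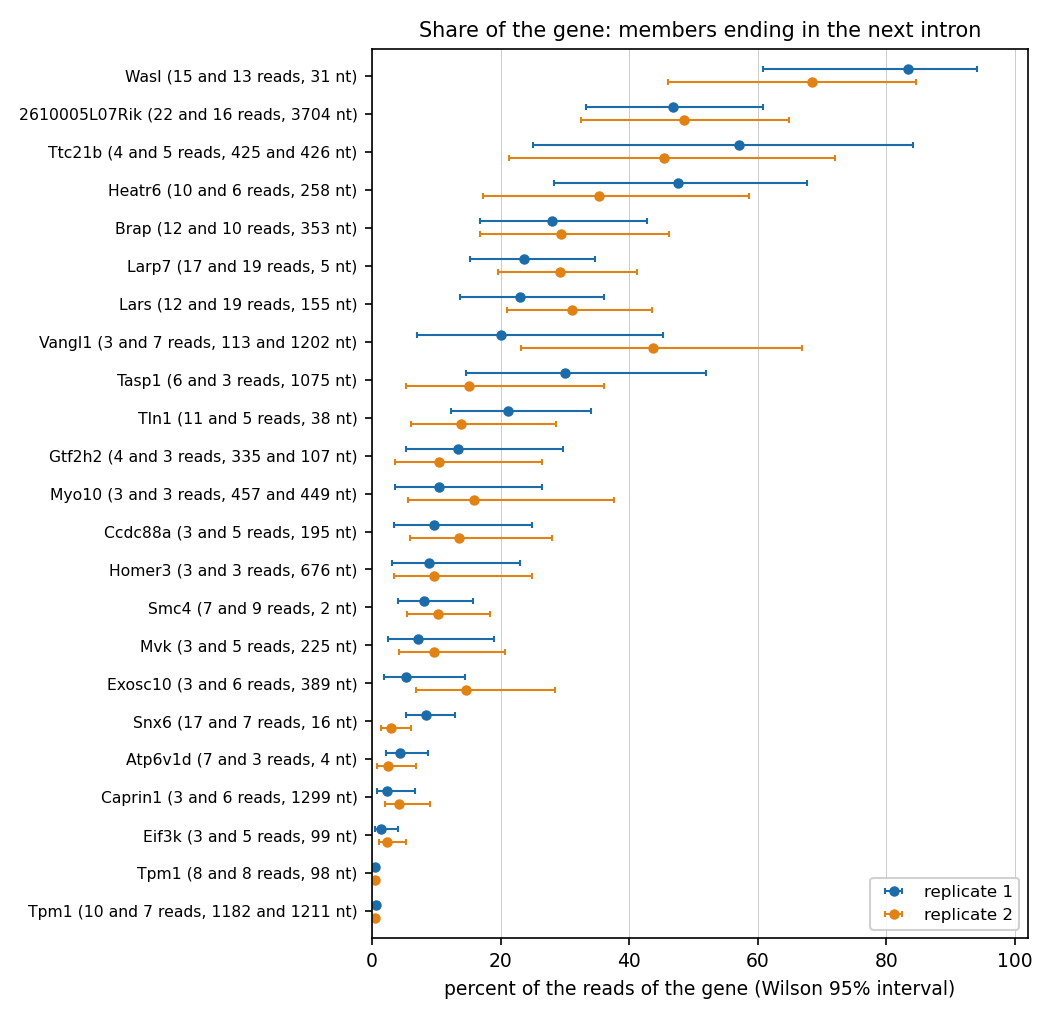
Percent of the reads of the gene taken by 23 of the 24 members that ended in the next intron, with replicate 1 drawn above replicate 2, bars for Wilson 95% intervals, and the reads and distance past the splice donor in each label. Members are ordered by the lower of their 2 shares, Wasl stands at the top with 83.3% and 68.4%, and most intervals are wide.

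For 18 of these 24 members the recorded end is that of an annotated transcript in at least 1 library, so its last 50 nt could be searched for the polyadenylation hexamers AATAAA and ATTAAA on the transcript's strand. A hexamer was found in 4 of the 18. The same search found 1 in 62.9% of 45241 complete coding transcripts with several exons, in 22.4% of 19514 transcripts annotated as retained introns and in 2.67% of 10744 coding transcripts tagged as incomplete. The stretches that hold it are printed from GENCODE M21, 5′ to 3′, with the hexamer in capitals.
Brap: taAATAAAtacataaaatcttaaaaaaaaa
Caprin1: cactcAATAAAtacttgttgaatgaatgaa
Tasp1: acttaattaaaattgAATAAAataagaaac
Gtf2h2: ttacttgtaatgATTAAAttgatgtcataa
The Brap stretch lies at chr5:121665601-121665630 on the plus strand, and its hexamer starts 39 nt before the end of Brap-206. In Caprin1, an RNA-binding protein of stress granules, it starts 25 nt before the end of Caprin1-209 (chr2:103767107-103767136, minus strand). The structure had 3 of 128 reads in replicate 1 and 6 of 141 in replicate 2, or 2.34% and 4.26%, and ended 1299 nt past the donor. In Tasp1, a protease that cleaves nuclear proteins, it starts 15 nt before the end of Tasp1-204 (chr2:139976532-139976561, minus strand), with 6 of 20 and 3 of 20 reads 1075 nt past the donor. In Gtf2h2, a subunit of the transcription factor TFIIH, it starts 18 nt before the end of Gtf2h2-202 (chr13:100468580-100468609, minus strand), with 4 of 30 and 3 of 29 reads. The hexamer belongs to the end recorded in replicate 1, 335 nt past the donor, and not to that of replicate 2, which lay 107 nt past the donor at the end of another annotated transcript. A match is a description of these letters and not a mapped cleavage site. The printed stretches, hexamer included, hold 21 A in Brap, 13 A in Caprin1, 18 A in Tasp1 and 11 A in Gtf2h2. Priming on these A was not tested. Sequence around the own positions in introns was not analysed here.

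The 36 members that read through the next intron held 197 reads in replicate 1 and 229 in replicate 2. Cdkn1a, an inhibitor of cyclin-dependent kinases, had 11 of 531 and 11 of 533 reads, or 2.07% and 2.06%, ending 740 nt past the donor. Cops7a, a subunit of the COP9 signalosome, had 12 of 206 and 6 of 193 reads and ended on the base of the parent's own end, as did Siva1, with 7 of 141 and 7 of 103 reads. Aplf, a DNA repair factor, had 7 of 11 and 12 of 14 reads, also on the base of the parent's end. Others ended well short of it. Sf3b2, a splicing factor, had 15 of 186 and 8 of 192 reads and ended 262 nt past the donor and 13341 nt before the parent's end on the chromosome. For the 21 members that reach the parent's end, the retained intron and not an early end separates the structure from the annotated transcript.

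The exons in which members ended were rich in A compared with other exons of the same transcripts. A window of 20 nt with at least 12 A started in 461 of 563 last exons (81.9%). The same held for 1584 of 5719 other internal exons of the same parents (27.7%). Windows that start near the 3′ edge of an exon run on into the next exon of the spliced parent, so A of that exon can count. The median of the highest A count per exon was 14 for members and 10 for the other exons. The difference stood at every exon length. The shares of members' last exons and of other exons were 71.5% and 22.6% in exons under 100 nt, 85.1% and 27.1% at 100 to 150 nt, 81.2% and 30.6% at 150 to 250 nt, and 91.3% and 52.1% in longer exons. These are shares over exons, of which members of 1 gene share a few: the members have 551 distinct last exons. No test was made, and the part of A-rich sequence in these ends was not tested.

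**Figure D5:**
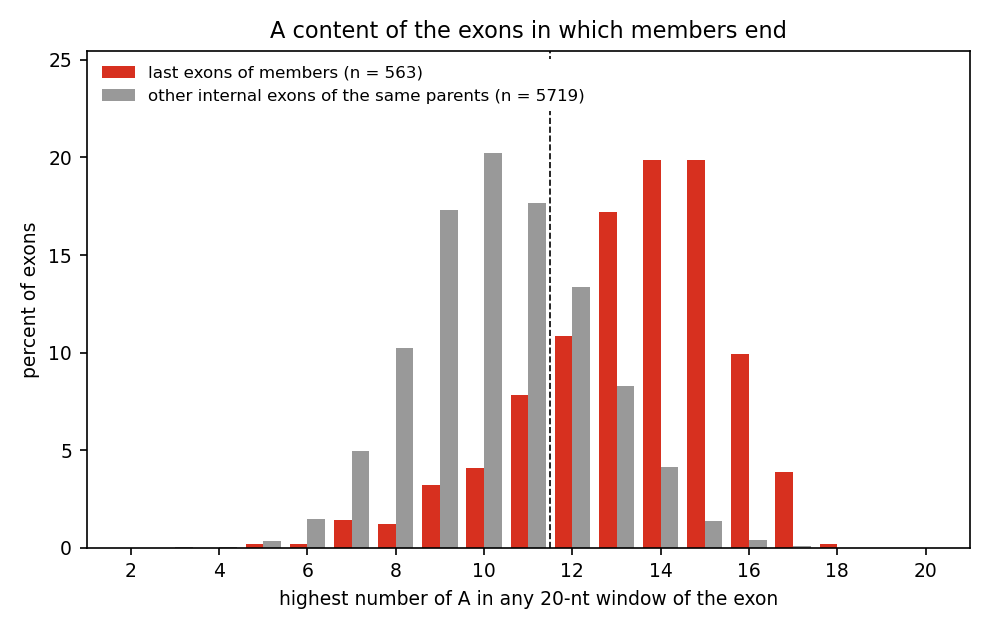
Percent of exons (y axis) by the highest number of A in any 20-nt window that starts in the exon (x axis). Left bars of each pair show the last exons of members (n = 563). Right bars show the other internal exons of the same parents (n = 5719). The dashed line separates windows of at least 12 A. The last exons of members centre on 14 A and the other exons on 10 A.

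A-rich last exons went with read number and with the position of the end. They made up 97.7% of the 44 members with a lower count of at least 20 reads, 85.2% at 10 to 19 reads, 85.9% at 5 to 9 and 75.0% at 3 to 4. By position, an A-rich window started in 149 of 158 last exons with the end inside (94.3%) and in 252 of 297 with the end at the donor (84.8%). Such a window started in 13 of 24 last exons followed by an end in the next intron (54.2%). Where the intron was read through, the count was 7 of 36 (19.4%). The 20 nt that follow an own position held a median of 12 A in replicate 1 and 11 A in replicate 2, with at least 12 A in 21 of 39 (53.8%) and 19 of 42 (45.2%). After an annotated transcript end inside the exon or at its donor the share was 45.1% and 46.2%, and after an annotated donor 20.3% and 20.1%. Over all windows of 442 parents the median was 6 A, and 2.21% held at least 12.

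Some well-read members lacked such a window. Rps3, a ribosomal protein, had 27 of 1041 reads in replicate 1 and 29 of 854 in replicate 2 on a structure without the last exon, with at most 9 A in 20 nt of its own last exon. Anp32b, a histone chaperone, had 19 of 335 and 20 of 328 reads, with at most 10 A. Hcfc2, given above for its high share, had at most 11 A. Pcnx4 had 17 of 18 and 16 of 22 reads, or 94.4% and 72.7%, with at most 11 A. Among the intronic candidates, windows starting in the exon before the intron held at most 15, 12 and 15 A in Wasl, Brap and Heatr6. In Caprin1, Mvk and Gtf2h2 they held at most 8, 5 and 7 A.

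Shares of the gene in replicate 1 and replicate 2 were set against each other for all 10328 structures with at least 10 reads (Fisher's exact test, two-sided, Benjamini-Hochberg adjustment over all of them). With 1 group, the test compares 2 libraries and no condition. Its p-values take account only of the sampling of reads, and the spread between replicate libraries is not estimated. Of all structures, 184 were called (1.78%). Of 574 members, 412 had enough reads to be tested, and 2 were called, both with the higher share in replicate 2. Because members had to be read in both libraries, the rule limits how far their shares can differ, and nothing is read from that count. An unadjusted p under 0.05 was found for 30 members. The median log2 ratio of shares, replicate 1 over replicate 2, was -0.02 for the members tested.

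Pam (chromosome 1, 97795114 to 98095646), the enzyme that amidates peptide hormones, had 16 of 99 reads in replicate 1 and 26 of 61 in replicate 2 ending at the donor of exon 13 of 26. Its share was 16.2% in replicate 1 and 42.6% in replicate 2 (log2 ratio -1.37, adjusted p 0.0257 by Fisher's exact test). Dek (chromosome 13, 47084775 to 47106201), a chromatin protein, had 28 of 137 and 53 of 134 reads ending at exon 7 of 11. Its share was 20.4% and 39.6% (log2 ratio -0.94, adjusted p 0.0484 by the same test). Both calls depend on the denominator. Over the member and complete models alone (annotated, NIC and NNC), the Pam share was 72.7% in replicate 1 and 78.8% in replicate 2 (log2 ratio -0.12, adjusted p 1 by Fisher's exact test), and the Dek share 37.8% and 58.9% (log2 ratio -0.63, adjusted p 0.335). They are also lost when reads are set against the library totals instead, with adjusted p 0.443 for Pam and 0.0567 for Dek by an exact binomial test. In a culture measured in bulk, fewer cells with an early end and fewer such transcripts per cell cannot be told apart.

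Genes of the machinery itself were read without a difference in level between the libraries that passed the test. Of 35 genes for cleavage, polyadenylation, the U1 particle and the linked elongation factors, 32 were read in both, and their levels summed to 1864 CPM in replicate 1 and 2054 CPM in replicate 2. None of the 31 tested was called by an exact binomial test (3 at an unadjusted p under 0.05, and 0 called with TMM scaling), against 3.98% of 8940 genes. Of the 35 genes, 18 had Prefix reads in either library and 5 had members. Over all genes, Prefix models were found in 2657 of 13029 with reads in replicate 1 and in 2609 of 12888 in replicate 2. These counts take 1 library at a time, whereas the 18 takes either library, so they are not alike and nothing is read from the difference. Members were held by 3.64% of genes read in both libraries, and by 5.36% of those with 10 to 49 reads. No test was made between the list and other genes. Rtf1 had 3 members, of which the most-read took 40.9% and 45.8% of the gene. Xrn2, the exonuclease that acts in transcription termination, had 2, with 13 of 88 and 11 of 99 reads and with 3 and 13 reads. Wdr33, which binds the polyadenylation hexamer, had 7 of 40 and 10 of 51 reads ending at exon 15 of 22. Leo1, of the PAF1 complex, had 6 of 32 and 4 of 23 reads, and Cpsf2, of the cleavage complex, 5 of 27 and 3 of 40 reads. A second list held 16 genes recalled as having early ends in other settings. Of these, 15 were read in both libraries, 7 had Prefix reads and 1 had a member. That was Nap1l1, a histone chaperone, with 15 of 184 and 18 of 186 reads, or 8.15% and 9.68%. Among the others, Eef2 (1247 and 1262 reads), Srsf3 (408 and 397), Itgb1 (272 and 248), Hnrnpa2b1 (271 and 256) and Fn1 (125 and 99) were well read and had no member. Pcf11, Dicer1 and Pdgfra had 2 reads or fewer in each library, so early ends in them were not detectable at this depth.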

How the data were processed

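Long reads of total RNA came from 2 C2C12 libraries, which the labels call biological replicates. Per the file headers, the deposited tables give raw read counts for each transcript model, and the authors annotated the models against GENCODE M21 on mm10. Models that are not annotated carry TALON as their source in the deposited files. For the aligner and filters nothing is given in the sources used here. All columns of per-sample counts were used (0 left out). Replicate 1 had 791850 reads and replicate 2 735077.

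Each Prefix chain was a single model per library. The gene's reads were the sum over all its models, and shares carry Wilson 95% intervals. The parent was the most-read annotated transcript whose intron chain starts with the member's. The finer classes of ends, the A-rich windows and the gene families were added after the data were seen. Tests were Fisher's exact test over all structures with at least 10 reads and, for genes, an exact binomial test given the library totals. Both were two-sided with Benjamini-Hochberg adjustment at 0.05. The code was run on simulated reads without spread between replicate libraries. For Fisher's test these came only from genes read more deeply than most member genes. The simulation therefore does not show how the tests behave for thinly read members. Log2 ratios used an offset of 0.5 reads. Python 3.11.15, numpy 2.4.6, scipy 1.17.1, matplotlib 3.10.9, R 4.3.3 and edgeR 4.0.16 (for TMM scaling of the gene counts) were used.

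The members and lists were chosen with earlier results of these data known. Genes were named by rule: the 15 members with the most reads, the 10 with the highest share in genes of at least 20 reads, 15 intronic ends, 5 genes with the most members, called members and members of both gene lists. Named outside it after their values were seen were the further next-intron, read-through, own-position and family genes, and members without an A-rich window. A few items that the rule selects are not reported here.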

Additional observations from a re-analysis of the deposited data

How the results depend on the processing

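Of 65 values recomputed for 16 results, 38 kept their call or, for a count, stayed within 1.5 times the reported one (or a median within the spread of the libraries). A further 21 moved farther, 6 lost a call and 0 reversed. The 6 all belong to Pam and Dek, each under several settings, so they are not 6 separate members. Some of the 38 could not have differed, because each Prefix chain was a single model per library. These are the settings with the most-read single model, the most distal end and the smallest distance between ends. They repeat the reported values and say nothing on how stable the results are. A minimum of 2 reads in each library gave 884 structures. At least 5 reads gave 319 structures in 248 genes with a median share of 18.7%, 105 annotated, 202 exonic and 1 intronic end, 11 ends in the next intron and 272 ends at the same base. These counts of ends are out of 319 structures and not 574, so they fall with the number of structures. With a single library, structures numbered 892 to 901. Of the 574 members, 10 and 16 had an intronic end in replicate 1 and replicate 2 taken alone. Against complete models alone the median share was 28.6%, against 14.7% as reported. At 14 A in 20 nt, 53.8% of members' last exons and 6.03% of other exons were A-rich. At 10 A these were 93.8% and 65.6%. The A thresholds were chosen after seeing the data.

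With no read filter 0 members and 91 structures were called, with complete models alone 0 members and 90 structures, and against the library totals 3 members and 420 structures. Adjusted p for Pam was 0.258 with no filter, 1 with complete models, 0.443 against totals and 0.0178 at 20 reads. For Dek it was 0.482, 0.335, 0.0567 and 0.0336. The cause was not tested. No paired analysis was possible because there is 1 group, so no groups share replicate numbers, and leaving out a library leaves no test of shares. The main limits are thin counts, single recorded ends on annotated sites, and the lack of genome sequence beyond the transcripts.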
